A study of Mus musculus with 60 samples.

Results

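The cyclin-dependent kinase (CDK) inhibitors and the retinoblastoma family of pocket proteins were followed as a set of 10 genes chosen by name out of 47729 mouse genes. The set holds the CIP/KIP inhibitors Cdkn1a (p21), Cdkn1b (p27) and Cdkn1c (p57), the INK4 inhibitors Cdkn2a, Cdkn2b, Cdkn2c and Cdkn2d, and the pocket proteins Rb1, Rbl1 (p107) and Rbl2 (p130). The rule was their names and not a measured value, but the set was chosen with earlier results of these data known. The question was which of these brakes on the cell cycle goes with retention of a membrane dye that is diluted when cells divide.

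PyMT-Bo1 is a mammary tumor line from C57BL/6 mice that carry the polyoma middle T oncogene. Its cells carried luciferase, a nuclear mApple fusion and the surface marker Thy1.1 in both groups, were stained with the dye DiD and were injected into the heart of wild-type C57BL6 mice, which were female and 8 to 10 weeks of age. From the femurs and tibias of 5 mice, pooled, single cells that were negative for CD45 were sorted, and 32 cells with high DiD intensity (DiD+, called dormant) and 28 cells with low intensity (DiD-, called proliferative) gave full-length cDNA libraries. The labels do not say which mouse gave which cell, so each group counts as 1 sample, no difference between the groups has a replicate check, and no p-value was computed.

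In the textbook scheme, D-type and E-type cyclins with their kinases phosphorylate the pocket proteins and so free E2F factors to switch on the genes of DNA replication. INK4 proteins bind Cdk4 and Cdk6 and keep them from D-type cyclins, whereas CIP/KIP proteins bind whole cyclin and kinase complexes, and p21 is a classic target of p53. Rb1 mostly binds the activating E2F factors, and Rbl2 with E2f4 and the MuvB complex forms the DREAM complex that silences cell cycle genes in resting cells, while Rbl1 is itself an E2F target gene and is most abundant in cycling cells.

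The start site regions of 3 members are printed as background, and whether their letters bear on the values that follow was not tested. Each line gives 120 bases from 125 to 6 bases before the RefSeq start, read 5′ to 3′ on the gene's strand. They lie in the mouse genome GRCm38.p6 at chr17:29090854-29090973 (plus strand, upstream of the distal start of Cdkn1a), chr2:157204540-157204659 (minus strand, Rbl1) and chr8:91069932-91070051 (plus strand, Rbl2). Capitals mark the p53 response element in Cdkn1a and the E2F word in Rbl1, and the Rbl2 stretch has neither.
Cdkn1a: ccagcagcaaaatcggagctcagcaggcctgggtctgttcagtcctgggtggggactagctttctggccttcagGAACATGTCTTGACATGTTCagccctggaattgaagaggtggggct
Rbl1: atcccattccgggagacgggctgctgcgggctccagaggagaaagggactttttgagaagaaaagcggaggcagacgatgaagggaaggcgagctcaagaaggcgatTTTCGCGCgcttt
Rbl2: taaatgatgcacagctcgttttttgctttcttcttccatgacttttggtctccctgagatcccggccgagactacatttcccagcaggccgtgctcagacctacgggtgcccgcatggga

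The Cdkn1a element is a pair of adjoining p53 half-sites that starts 51 bases before the start and is 1 base off the consensus. A pair with no spacer and at most 1 base off was found in 29 of 32851 RefSeq start regions of 300 bases (0.0883%), while a single half-site was found in 8.36%. The E2F word in Rbl1, TTTCGCGC, starts 18 bases before its start. One of the words TTTCCCGC, TTTCGCGC, TTTGCCGC and TTTGGCGC, on either strand, was found in 2.26% of the start regions. Among members it was also found in Cdkn2a, 99 bases before its upstream start. Among the genes of the S phase list, 12 of the 30 with a start region held such a word. On either strand, the word TTTGAA, which is the core of the CHR element through which MuvB binds, was found in 17.9% of all start regions and among members in Cdkn2b and Rbl2. The GC box GGGCGG was in 35.7% of all start regions and in at least 1 start region of all 8 members that were looked up. Start regions were matched for 8 of the 10 members, and Cdkn1c and Rb1 were not among them. Letters in such a window do not show that a factor was bound.

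Each cell had 2276789 to 7794219 counts on mouse genes in DiD+ cells (median 4653711) and 2624405 to 6199108 in DiD- cells (median 4440161), so 1 count was worth 0.128 to 0.439 CPM (counts scaled to a library total of 1000000). Levels were obtained by summing the counts of a group and dividing by the group's total. The limit taken for a count of 0, 3 counts over a group, came to 0.0205 CPM for DiD+ and 0.0251 CPM for DiD-. The reads carry no molecular identifiers, so the 95% intervals given below (exact Poisson for levels, exact Clopper-Pearson for shares) cover counting error only. Krt8 was found in all 60 cells and Krt18 in 29 of 32 DiD+ and 28 of 28 DiD- cells, whereas the epithelial markers Krt19, Epcam and Krt7 had no count in any cell. Some wells stood apart. In 6 DiD+ wells (cells 19, 21, 24, 30, 37 and 88) and 1 DiD- well (cell 84), 10 to 13 of the 13 macrophage or monocyte markers had at least 10 counts. The summed level of these markers ran from 0 to 21075 CPM (median 8.81) in DiD+ and from 0 to 1809 CPM (median 0.108) in DiD- cells. Erythroid markers (at least 4 of 7) were also found in cells 19, 30, 37 and 84 and in the DiD- cells 44 and 86. Members are therefore given with and without the 7 macrophage marker wells. DiD+ cell 29, with 4 of 5 megakaryocyte or platelet markers at 10 counts or more, was kept in both.

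Of the 10 members, 7 reached 1 CPM in a group. The pooled log2 ratio of DiD+ over DiD- (after adding 1 CPM) was above 0 for 4 of them and below 0 for 3, against 53.2% and 46.8% of the 12432 genes that reached 1 CPM. None was at least 2-fold higher in DiD+ cells, a size reached by 12.1% of genes, and 1, Rbl1, was at least 2-fold lower, a size reached by 4.86% of genes. The members' median log2 ratio was 0.09 and that of all genes was 0.04. When the macrophage marker wells were left out, Cdkn1a also passed 2-fold, where 10.4% of 12153 genes did.

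**Figure D1:**
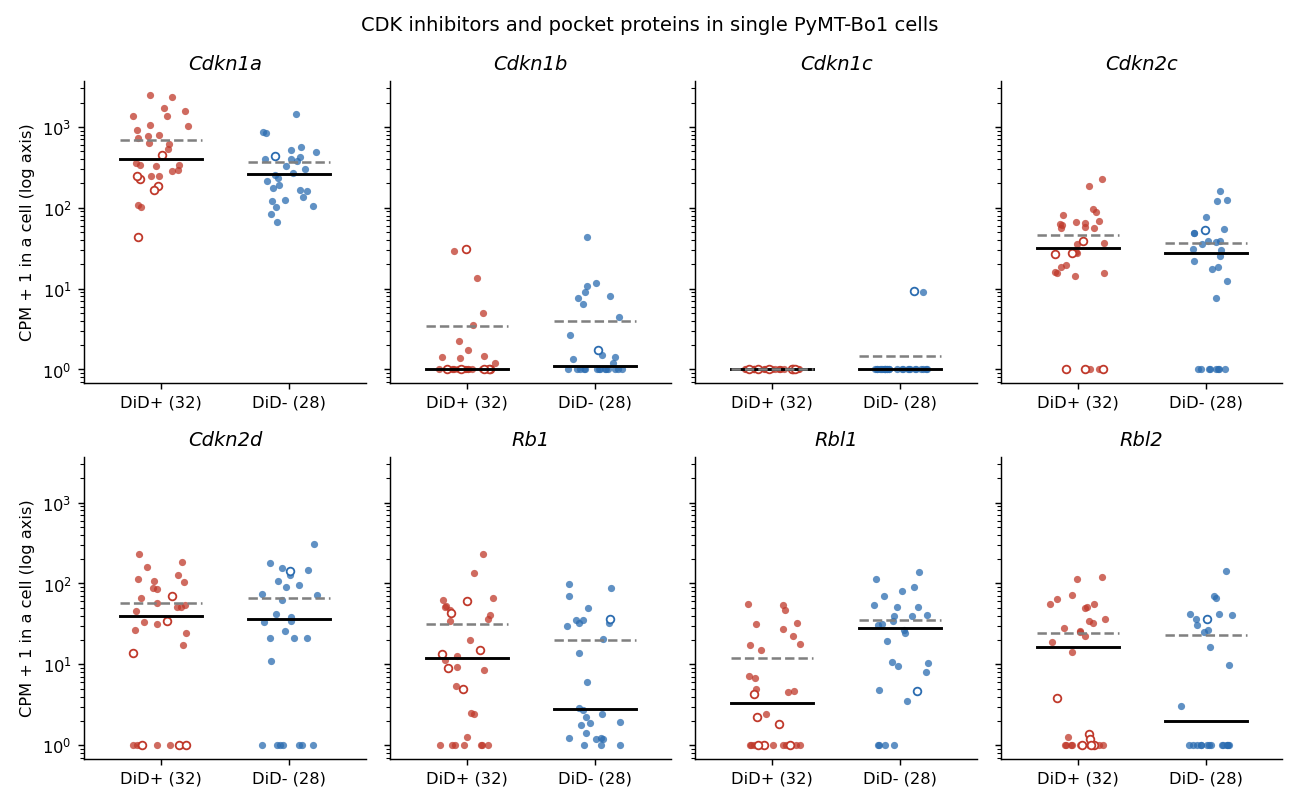
CPM + 1 (log axis) of the 8 members with any count, in 32 DiD+ (red) and 28 DiD- (blue) cells. Each point is 1 cell, open points are the macrophage marker wells, the solid line is the median cell and the dashed line the pooled level. Cdkn1a lay above 40 CPM in every cell of both groups, and Rbl1 had a median cell at 2.34 CPM in DiD+ cells and 27.5 in DiD- cells.

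Cdkn1a (chr17:29090976-29100727, plus strand), the p53-induced inhibitor of CDK2 complexes, was the most abundant brake in both groups. It had counts in 32 of 32 DiD+ and 28 of 28 DiD- cells. In DiD+ cells its level ran from 43.1 CPM (cell 24, a macrophage marker well) through a median of 403 to 2501 CPM (cell 36), and in DiD- cells from 66.1 through 260 to 1426 CPM (cell 26). The groups overlapped over most of this range. 4 DiD+ cells lay above the highest DiD- cell, 22 of 32 DiD+ cells lay above the DiD- median, and in 66.96% of all pairings of a DiD+ with a DiD- cell the DiD+ cell was higher. The pooled level was 688 CPM (683 to 692) in DiD+ and 364 CPM (361 to 368) in DiD- cells, 1.89-fold higher in DiD+ (log2 ratio 0.91). This ratio stood at the 86.7th percentile of all genes. It was 0.90 among the 18 DiD+ and 12 DiD- cells numbered 17 to 46 and 0.93 among the 14 and 16 cells numbered 63 to 92, where what the numbers mark is not stated. Without the macrophage marker wells the levels were 804 and 363 CPM, a 2.22-fold difference (log2 ratio 1.15), and the DiD+ median was 621 CPM. These values still hold cell 29, which had megakaryocyte or platelet markers and 2333 CPM of Cdkn1a. Leaving out single cells gave log2 ratios from 0.77 (without cell 36) to 1.12 (without cell 26). The 3 highest cells held 33.8% of the DiD+ counts. Scaling each cell by its spike-ins, which moved the median log2 ratio of all genes from 0.04 to -0.33, gave 0.37 for Cdkn1a.

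Cdkn1b (chr6:134920401-134925513, plus strand), which encodes p27, an inhibitor classically high in resting cells and regulated mainly through protein breakdown, was scarce. Counts were found in 11 of 32 DiD+ cells (34.4%, 18.6 to 53.2) and 14 of 28 DiD- cells (50%, 30.6 to 69.4), and at least 10 counts in 5 and 8 cells. The median cell had 0 CPM in DiD+ cells and 0.101 in DiD-, and the highest cells had 29.6 CPM (cell 30, a macrophage marker well) and 42.3 CPM (cell 74). These single cells held 41.01% and 37.4% of their group's counts. The pooled levels were 2.44 CPM in DiD+ cells and 3.02 in DiD- (log2 ratio -0.23), and the sign was not stable. The log2 ratio was 0.22 without cell 74, -0.69 without cell 30, 0.52 in the cells numbered 17 to 46 and -1.11 in those numbered 63 to 92. Leaving out all macrophage marker wells brought the log2 ratio to -0.54. The p27 protein was not measured here.

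Cdkn1c (chr7:143458339-143461050, minus strand), the imprinted inhibitor p57, had no count in any DiD+ cell. It had 54 counts in 2 DiD- cells, 8.36 CPM in cell 84 (a macrophage marker well) and 8.03 CPM in cell 40. The pooled level in DiD- cells was 0.452 CPM, 22-fold above the limit of 3 counts over the DiD+ group. That bound covers counting error only and rests on 2 cells, 1 of them a macrophage marker well. Once the macrophage marker wells were left out, the pooled DiD- level fell to 0.266 CPM. The shares of cells with a count overlapped, at 0% (0 to 10.9) in DiD+ and 7.14% (0.877 to 23.5) in DiD- cells.

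Cdkn2a (chr4:89274471-89294653, minus strand), which encodes p16 and p19Arf, and its neighbor Cdkn2b (chr4:89306299-89311039, minus strand), which encodes p15, had 0 counts in all 60 cells. A count of 0 allows a level of up to 0.0205 CPM in DiD+ cells and 0.0251 in DiD- cells, and a share of up to 10.9% of DiD+ and 12.3% of DiD- cells (upper Clopper-Pearson limits). The macrophage marker wells also had none. Mtap, the nearest protein-coding gene on the side of lower coordinates, lies 93390 bases from Cdkn2a and was abundant (1783 CPM in DiD+, 1985 CPM in DiD-), with counts in all 60 cells. On the other side Dmrta1, at 368397 bases, had 15.5 CPM in 15 DiD+ cells and 9.20 CPM in 13 DiD- cells. Of the 38 other protein-coding genes within 1000000 bases of the pair, 18 had a count in these cells, and 17 of the 38 had a symbol that starts with Ifn. Several of the 18 had the same counts as one another, so they need not be separate signals. Counts on genes do not show whether the DNA of the 2 genes was present or silent in this line.

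Cdkn2c (chr4:109660876-109667189, minus strand), which encodes the INK4 protein p18, had a count in 26 of 32 DiD+ cells (81.2%, 63.6 to 92.8) and 20 of 28 DiD- cells (71.4%, 51.3 to 86.8). Its level ran from 0 through a median of 30.96 to 225 CPM (cell 63) in DiD+ and from 0 through 26.8 to 162 CPM (cell 27) in DiD- cells. The pooled levels of 44.9 CPM (43.8 to 46.03) and 35.5 CPM (34.5 to 36.6) gave a log2 ratio of 0.33. Single cells moved it between 0.14 and 0.57, and the cells numbered 17 to 46 and 63 to 92 gave -0.16 and 0.88, opposite signs. Leaving out the macrophage marker wells raised the log2 ratio to 0.56.

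Cdkn2d (chr9:21288410-21291407, minus strand), which encodes the INK4 protein p19, had a count in 23 of 32 DiD+ cells (71.9%, 53.3 to 86.3) and 21 of 28 DiD- cells (75%, 55.1 to 89.3). Its level ran from 0 through a median of 39.02 to 233 CPM (cell 42) in DiD+ and from 0 through 35.4 to 307 CPM (cell 65) in DiD- cells. The groups overlapped throughout, at pooled levels of 56.6 CPM (55.4 to 57.8) and 64.3 CPM (62.8 to 65.7), so the log2 ratio was -0.18. Leaving out cell 65 brought it to 0.03, and leaving out the macrophage marker wells to 0.08.

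Rbl1 (chr2:157145893-157204534, minus strand), which encodes p107, the pocket protein of cycling cells, differed most between the groups among the 7 members that reached 1 CPM. Counts were found in 19 of 32 DiD+ cells (59.4%, 40.6 to 76.3) and 24 of 28 DiD- cells (85.7%, 67.3 to 95.97). Its level ran from 0 through a median of 2.34 to 54.6 CPM (cell 18) in DiD+ cells and from 0 through 27.5 to 137 CPM (cell 79) in DiD- cells. 5 DiD- cells lay above the highest DiD+ cell and 24 of 28 above the DiD+ median, while 5 of 32 DiD+ cells lay above the DiD- median. The pooled level was 11.001 CPM (10.5 to 11.6) in DiD+ and 34.8 CPM (33.8 to 35.9) in DiD- cells, 3.17-fold lower in DiD+ (log2 ratio -1.58), at the 1.13th percentile of all genes. Leaving out each of the 60 in turn gave log2 ratios between -1.77 and -1.40. The ratio was -1.56 in the cells numbered 17 to 46 and -1.39 in those numbered 63 to 92. The macrophage marker wells had 0 to 3.63 CPM each, and without them the levels were 13.5 and 35.6 CPM, 2.63-fold lower in DiD+ (log2 ratio -1.33). The pseudogene Gm14277 overlaps Rbl1 on the opposite strand and had 2927 counts in DiD+ and 3121 in DiD- cells, and the counting was not stated to use strand.

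Rbl2 (chr8:91070057-91123844, plus strand), which encodes p130, the pocket protein of resting cells, had a count in 21 of 32 DiD+ cells (65.6%, 46.8 to 81.4) and 14 of 28 DiD- cells (50%, 30.6 to 69.4). Its level ran from 0 through a median of 15.3 to 120 CPM (cell 31) in DiD+ and from 0 through 1.01 to 143 CPM (cell 79) in DiD- cells. The pooled levels nonetheless lay close together, at 23.7 CPM (22.9 to 24.5) and 22.1 CPM (21.3 to 22.97), and their log2 ratio was 0.09. Cell 79 held 25.4% of the DiD- counts, and without it the log2 ratio was 0.44. Without the macrophage marker wells, which had between 0 and 35.3 CPM, the levels were 29.4 and 21.8 CPM (log2 ratio 0.42). In the cells numbered 17 to 46 and 63 to 92 the log2 ratio was 0.54 and -0.29. Aktip overlaps Rbl2 on the opposite strand, and 29 of the 60 estimated counts of Rbl2 were not whole numbers, as RSEM gives where reads are shared between features.

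Rb1 (chr14:73183673-73325822, minus strand), the founding tumor suppressor of the family, had a count in 25 of 32 DiD+ cells (78.1%, 60.03 to 90.7) and 25 of 28 DiD- cells (89.3%, 71.8 to 97.7). Its level ran from 0 through a median of 10.99 to 231 CPM (cell 43) in DiD+ and from 0 through 1.82 to 97.7 CPM (cell 73) in DiD- cells. The pooled levels were 30.2 CPM (29.3 to 31.1) and 18.97 CPM (18.2 to 19.8), 1.59-fold higher in DiD+ (log2 ratio 0.64). Leaving out cell 43, which held 23.1% of the DiD+ counts, gave 0.32, and the range of the other cells reached 0.81. The ratio was 0.96 and 0.49 in the 2 runs of cell numbers and 0.75 without the macrophage marker wells. At least 10 counts were found in 22 DiD+ and 13 DiD- cells. Of the 60 estimated counts 33 were not whole numbers, and Rcbtb2 and Lpar6 overlap the gene on the opposite strand, so the smallest values are uncertain.

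**Figure D2:**
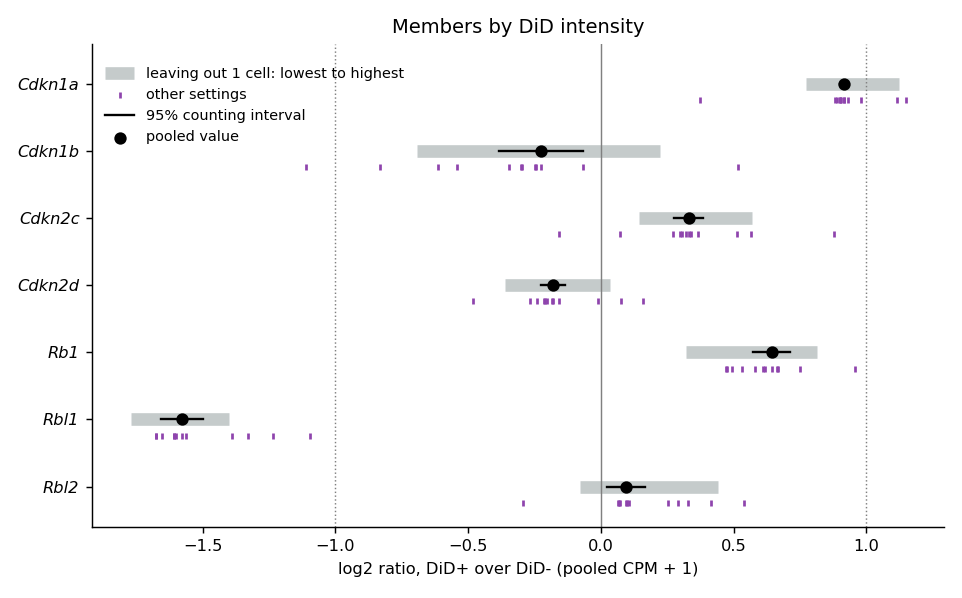
Log2 ratio of DiD+ over DiD- (pooled CPM + 1) for the 7 members that reached 1 CPM, with the 95% counting interval, the range on leaving out 1 cell and the values under the other settings. Cdkn1a and Rb1 stayed above 0 and Rbl1 stayed below -1 throughout, and Cdkn1b, Cdkn2c, Cdkn2d and Rbl2 had values on both sides of 0.

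Shares of cells were also counted after every cell was thinned to 2200000 counts. Rbl1 was then found in 19 DiD+ and 24 DiD- cells, Rbl2 in 18 and 14, Rb1 in 24 and 22, Cdkn2c in 26 and 20, Cdkn2d in 23 and 21 and Cdkn1b in 9 and 12.

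The pocket proteins were also read together in each cell, and the pairing of Rbl1 with Rbl2 was added after the data were seen. Rbl1 had no count in 13 DiD+ and 4 DiD- cells, so few DiD- cells could hold Rbl2 alone. Rbl1 and Rbl2 were both found in 13 of 32 DiD+ and 14 of 28 DiD- cells, and neither was found in 5 and 4 cells. Rbl2 without Rbl1 was found in 8 DiD+ cells and in 0 of 28 DiD- cells, which allows a share of up to 12.3%, whereas Rbl1 without Rbl2 was found in 6 DiD+ and 10 DiD- cells. With a minimum of 10 counts the cells with Rbl2 alone were again 8 and 0, and without the macrophage marker wells they were 6 of 26 and 0 of 27. Per kilobase of exon, Rbl1 was above Rbl2 in 12 DiD+ and 19 DiD- cells, and Rbl2 was above Rbl1 in 15 and 5.

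Compared per kilobase of exon, which removes the difference in gene length, Cdkn1a stood far above the other members. It had 194 CPM per kilobase in DiD+ and 103 in DiD- cells. Cdkn2d followed with 35.96 and 40.8, and Cdkn2c with 16.7 and 13.2. The pocket proteins were lower. In DiD+ cells the order went on with Rb1 (5.02), Rbl2 (3.13), Rbl1 (1.84) and Cdkn1b (0.535 CPM per kilobase). In DiD- cells Rbl1 (5.81) came before Rb1 (3.15), Rbl2 (2.93) and Cdkn1b (0.664). Neighbors in this order overlapped over cells. Cdkn2d was above Cdkn2c in 21 of 32 DiD+ and 18 of 28 DiD- cells and below it in 8 and 5, and Rbl1 and Rbl2 in DiD+ cells could not be placed in order, with 15 cells one way and 12 the other.

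Cell by cell, Cdkn1a was the highest inhibitor per kilobase in 29 of 32 DiD+ cells (90.6%, 74.98 to 98.02) and in 20 of 28 DiD- cells (71.4%, 51.3 to 86.8). In the remaining cells Cdkn2d was the highest, namely DiD+ cells 42, 63 and 67 and DiD- cells 27, 33, 34, 39, 46, 65, 86 and 90. Cdkn1a made up a median of 76.99% of the summed inhibitors per kilobase in DiD+ cells (27.3 to 100) and 68.2% in DiD- cells (13.4 to 100). The intervals of the 2 shares overlap. They also depend on the transcript length taken, since with the longest transcript of each gene in place of all its exons the counts became 31 and 25 cells.

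**Figure D3:**
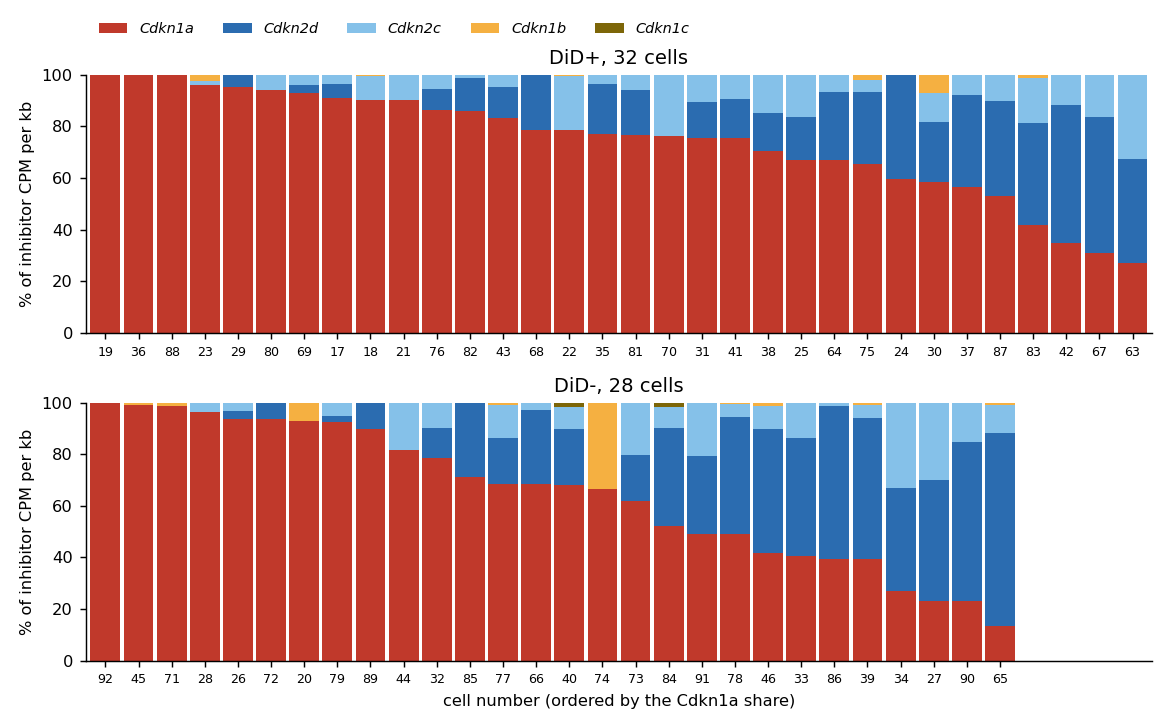
Share (%) of each inhibitor in the summed inhibitor CPM per kilobase of exon, 1 bar per cell, for 32 DiD+ (top) and 28 DiD- (bottom) cells, ordered by the Cdkn1a share. Cdkn1a fills more than any other inhibitor in 29 DiD+ and 20 DiD- cells, and Cdkn2d takes its place in 3 and 8.

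Each member was set against the summed level of 41 S phase genes and 53 G2/M genes in the same cell. The S phase sum had a median of 1715 CPM (383 to 14235) in DiD+ and 4337 CPM (1124 to 13184) in DiD- cells, and the G2/M sum a median of 2158 CPM (1241 to 31042) and 6995 CPM (812 to 25052). The correlations that follow are Spearman's rho across cells of 1 group, as a description. All the values of a cell share its library, and several members also tracked the number of genes detected in it.

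Rbl1 went with the S phase sum in both groups, at a rho of 0.59 over 32 DiD+ cells and 0.37 over 28 DiD- cells. Without the macrophage marker wells these were 0.63 and 0.40. The rho of Rbl1 with the G2/M sum was 0.41 and 0.35 over all DiD+ and DiD- cells, and with the number of genes detected 0.29 and 0.55. Its 5 closest genes over the 60 cells, among 8380 genes that reached 10 CPM pooled in either group and had counts in 20 cells or more, were Smc2 (a condensin subunit, rho 0.70), Prim2 (a primase subunit, 0.67), Rrm2 (a subunit of ribonucleotide reductase, 0.67), Cse1l (the exporter of importin alpha, 0.67) and Brca1 (0.66). Smc2, the closest of them, was at 70.9 CPM pooled over DiD+ cells and at 142 CPM over DiD- cells.

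The rho with G2/M of both INK4 genes that had counts was higher in DiD- than in DiD+ cells. For Cdkn2d the rho with the G2/M sum was 0.40 over DiD+ and 0.80 over DiD- cells, and for Cdkn2c it was 0.36 and 0.73. Against the S phase sum Cdkn2d had a rho of 0.09 and -0.12, and Cdkn2c of 0.05 and 0.29. With the number of genes detected the rho of Cdkn2d was 0.36 and 0.43 and that of Cdkn2c 0.35 and 0.38, so that in DiD+ cells each was about as high as the rho with G2/M. The genes closest to Cdkn2d included Cenpl (a centromere protein, rho 0.72), Ndc80 (a kinetochore protein, 0.70), Ccna2 (cyclin A2, 0.68) and Spag5 (a spindle protein, 0.68). Those closest to Cdkn2c were Siah1b (0.55), Knl1 (0.54), Cdca5 (0.54), Ckap2l (0.53) and Dbf4 (0.53), of which Knl1, Cdca5 and Ckap2l act in chromosome segregation and Dbf4 in the firing of replication origins. Of the 100 genes closest to each, 37 for Cdkn2d, 27 for Cdkn2c and 23 for Rbl1 were on the S phase or G2/M list, which together made up 1.06% of the 8380 genes.

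Cdkn1a did not go with either phase in DiD+ cells, with a rho of 0.01 against the S phase sum and 0.02 against the G2/M sum, and of 0.39 and -0.08 in DiD- cells. None of the 100 genes closest to it was on the S phase or G2/M list, and the same was true of Rb1 and Rbl2. Its closest genes were Mdm2 (rho 0.64), the ubiquitin ligase that p53 induces against itself, Phlda3 (0.59), a p53-induced inhibitor of Akt, Foxo1 (0.53), Stk19 (0.47) and Aldh2 (0.47). The relation to Mdm2 was seen within each group, at 0.59 over DiD+ and 0.56 over DiD- cells, and to Phlda3 at 0.53 and 0.49. Mdm2 was 323 CPM in DiD+ cells and 140 in DiD- cells (log2 ratio 1.20). Of its DiD+ counts, 36.7% lay in cell 36, which was also the highest cell for Cdkn1a. Phlda3 was 433 and 327 CPM (log2 ratio 0.40). Ccng1, another p53 target, was the 1 gene of the p53 list whose start region held a pair of half-sites like the one printed for Cdkn1a, and its level was 219 CPM in DiD+ cells and 194 in DiD- cells (log2 ratio 0.17). It is named for that match, after its values were seen.

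**Figure D4:**
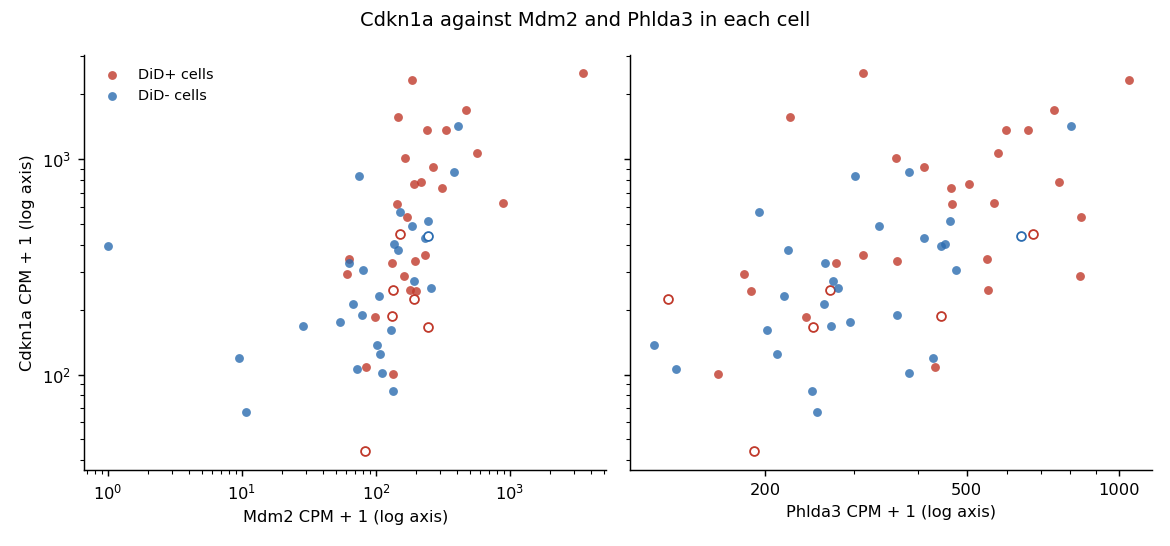
Cdkn1a against Mdm2 (left) and Phlda3 (right), CPM + 1 on log axes, in 32 DiD+ (red) and 28 DiD- (blue) cells, with the macrophage marker wells open. Cells high in Cdkn1a tended to be high in both genes, with a rho over 60 cells of 0.64 for Mdm2 and 0.59 for Phlda3.

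Rb1 was closest to Gltp (rho 0.57), Efr3a (0.46), Arrb2 (0.45), Scfd2 (0.44) and Usp46 (0.44), and Rbl2 to Rnf138 (0.55), Cask (0.53), Arhgap28 (0.52), Nek7 (0.51) and Iws1 (0.51). In DiD- cells Rbl2 had a rho of 0.48 with the S phase sum, and in DiD+ cells it was 0.06. For Rb1 these values were 0.36 and 0.06. The rho of Rbl2 with the number of genes detected was 0.47 and 0.17 in the same groups.

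**Figure D5:**
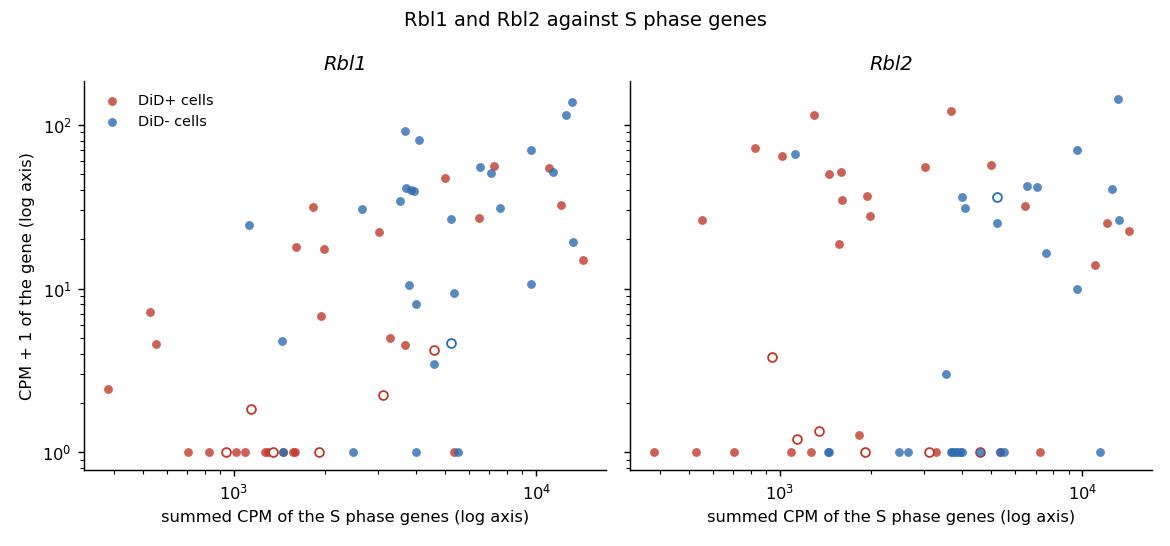
Rbl1 (left) and Rbl2 (right), CPM + 1, against the summed CPM of 41 S phase genes, both on log axes, in 32 DiD+ (red) and 28 DiD- (blue) cells, with the macrophage marker wells open. Rbl1 went with the S phase sum in both groups (rho 0.59 and 0.37), and its rho with the G2/M sum, not drawn, was 0.41 and 0.35. The 13 DiD+ and 4 DiD- cells with no Rbl1 lie along the bottom of the left panel, and 8 of these DiD+ cells had Rbl2.

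Other genes of the pathway were read by list, each with the number at 1 CPM or more. The lists were chosen with earlier results of these data known, so their counts are a description. Over all genes 53.2% had a ratio above 0 and 46.8% below. Among the 9 kinases and cyclins of G1 and S phase, 4 had a log2 ratio above 0 and 5 below, with a median of -0.23 and none past 2-fold. The INK4 target kinases went opposite ways, Cdk6 with 46.4 CPM in DiD+ cells and 31.2 in DiD- (log2 ratio 0.56) and Cdk4 with 572 and 800 CPM (-0.48). Cdk4 is named beside Cdk6 after its values were seen. Ccne1 (cyclin E1) had a log2 ratio of 0.54, and 40.2% of its DiD- counts were those of cell 73. Its paralog Ccne2 had -0.59, and Ccna2 had -0.77.

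Of the 10 E2F and DP factors, 7 had a ratio below 0, against 46.8% of all genes, and the median was -0.42. E2f7, an atypical repressor that is itself an E2F target, had 8.82 CPM in DiD+ cells and 25.2 in DiD- (log2 ratio -1.42), and E2f1, an activator, had 37.9 and 80.7 CPM (-1.07). E2f5, a partner of Rbl2, and Tfdp2 had 0.25 and 0.23. The single E2F gene past 2-fold higher was E2f2, at 3.31 and 0.393 CPM, and 59.1% of its DiD+ counts lay in cell 30, a macrophage marker well. Without these wells the highest ratio in this list was that of E2f5, at 0.31.

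Of the 8 genes of MuvB and its partners, 6 had a ratio below 0 (median -0.40), against 46.8% of all genes. Mybl2 (B-Myb), which joins MuvB in place of the pocket proteins when cells enter the cycle, had 18.0 CPM in DiD+ cells and 56.3 in DiD- (log2 ratio -1.59), and Foxm1, which follows it on MuvB in G2, had 45.5 and 86.4 CPM (-0.91). Rbl1 and Mybl2 thus had nearly the same ratio. No gene of the S phase list (lowest Uhrf1 with -1.34), of the G2/M list (lowest Top2a with -1.22) or of the E2F and DP list had a lower ratio than Rbl1. In the same lists without the macrophage marker wells the lowest were Pola1 with -1.28, Top2a with -0.93 and E2f7 with -1.21, against -1.33 for Rbl1.

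Of the 40 S phase genes at 1 CPM or more, 39 had a ratio below 0 (median -0.68), and of the 53 G2/M genes 49 did (median -0.47), where 46.8% of all genes did. The median was -1.10 and -0.29 for the S phase list in the cells numbered 17 to 46 and 63 to 92, and -1.12 and 0.10 for the G2/M list. Cdkn2c and Cdkn2d, whose rho with G2/M in DiD- cells is given above, had log2 ratios of 0.33 and -0.18. Within the G2/M list Top2a and Bub1 were lowest (-1.22 and -1.20) and Psrc1 and Ckap2 highest (0.75 and 0.23).

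Of the 22 p53 targets, Cdkn1a not counted, 16 had a ratio above 0 and 6 below, against 53.2% and 46.8% of all genes. Their median was 0.37. Past 2-fold higher were 6 of the 22, against 12.1% of all genes, and past 2-fold lower 0. They were Gdf15, Fas and Mdm2, and also Sesn1, Perp and Btg2, which are named after their values were seen. Fas, a death receptor, had 29.98 CPM in 18 DiD+ cells and 6.95 CPM in 10 DiD- cells (log2 ratio 1.96). Gdf15, a secreted stress factor, had 88.9 CPM in 5 DiD+ cells, with 44.8% of the counts in cell 21, and 3.36 CPM in 1 DiD- cell, cell 84. Both of these are macrophage marker wells. Sesn1 had 211 and 64.96 CPM (log2 ratio 1.68), Perp 49.3 and 14.7 CPM (1.68) and Btg2 166 and 68.8 CPM (1.26). The lowest were Polk (-0.77) and Plk3 (-0.22). With the macrophage marker wells left out, 18 of 21 were above 0, against 53.5% of all genes, and the median was 0.53. Under spike-in scaling, where the median of all genes was -0.33, the median of the list was -0.19.

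Of the 14 other antiproliferative genes, 12 had a ratio above 0, against 53.2% of all genes, and 5 were past 2-fold higher, against 12.1%. This list, like that of the p53 targets, was chosen with earlier results of these data known. Its median was 0.77, and it was 0.12 under spike-in scaling and 0.38 in the cells numbered 63 to 92. Gas1, a growth arrest gene, had 12.4 CPM in 10 DiD+ cells and 2.301 CPM in 5 DiD- cells (log2 ratio 2.03). Gadd45a, a stress gene that p53 can induce, had 70.6 and 21.7 CPM (1.66), but 49.8% of its DiD+ counts were in cell 41. Foxo1 had 16.01 CPM in 18 DiD+ cells and 6.18 CPM in 9 DiD- cells (1.24). Hes1 and Ccng2 were lowest, at -0.05 and -0.27.

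The 9 genes of p27 turnover had a median of -0.22, with 3 above 0 and 6 below, against 53.2% and 46.8% of all genes. Skp2, the receptor that sends p27 to the proteasome, had 21.4 CPM in DiD+ cells and 41.1 in DiD- (log2 ratio -0.91), and Rnf123, which acts on p27 in G1, had 28.6 and 53.9 CPM (-0.89). Skp1 and Cops5 were highest, at 0.15 and 0.12. Of the 18 regulators of the Ink4-Arf locus, 8 were above 0 and 10 below (median -0.07). Ets2, an activator of p16, had 25.99 and 10.5 CPM (1.23) and Id1 had 106 and 80.05 CPM (0.40), while Phf19, a Polycomb subunit, had -0.90 and Rnf2, the ubiquitin ligase of the Polycomb complex, had -0.31. The locus itself had no counts in either group.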

How the data were processed

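Single PyMT-Bo1 cells, 32 DiD+ and 28 DiD-, were grouped by the DiD intensity in their labels. Per the labels and the study's methods, adapters were trimmed, reads were aligned with STAR to GRCm38/mm10 with spike-in and transgene sequences added, and genes were quantified with RSEM, whose estimated counts the authors deposited as they were (versions not given in the sources used here). A second deposited table holds the signal the authors normalized with BASiCS. It served only as another scaling and has 7 of the 10 members. Of the 60 columns in each table, 0 were left unused.

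Estimated counts were rounded, since 96.6% of values were whole, and summed over the cells of a group. Totals left out spike-ins and transgenes. CPM and the log2 ratio with a pseudocount of 1 CPM were taken from the sums. Genes that reached 1 CPM in either group entered counts and medians. The members and the gene lists were chosen with earlier results of these data known. From each list the text names up to 2 highest and 2 lowest ratios of genes that reached 10 CPM in either group, and for each member that did so and had counts in 20 cells, the 5 genes with the highest rho. Genes named outside this rule are marked, and 1 gene that it names is not reported here. A marker was called present at 10 counts, and a macrophage marker well had at least 7 of 13. Lengths and positions come from GENCODE (GRCm38) and start regions from RefSeq (GRCm38.p6). No 2 libraries held identical counts.

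The alternatives were the mean over cells, BASiCS values, spike-in scaling, factors from edgeR (TMM) or DESeq2 (median of ratios), a pseudocount of 0.1 or 10 CPM, counts not rounded, other minimums, thinning to 2200000 counts, leaving out marker wells, each run of cell numbers (17 to 46, 63 to 92) and each cell in turn. The pooled log2 ratio was tested on simulated Poisson counts, on genes that reached 10 CPM. Those counts had no spread between the cells of a group beyond depth and counting error. The other steps were not simulated. Python 3.11.15 (numpy 2.4.6, pandas 2.3.3, scipy 1.17.1, matplotlib 3.10.9) was used. Scaling factors came from edgeR 4.0.16 and DESeq2 1.42.0 under R 4.3.3.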

Additional observations from a re-analysis of the deposited data

How the results depend on the processing

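Over all members and lists, 297 of 391 values under another setting were classed as the same as the reported value and 94 as moved. Log2 ratios, list medians and shares of cells were classed by the counting or single-cell range of the reported value. Counts of genes or cells were classed by a limit on their fold change, and rho by a limit on its shift, so the 2 totals mix criteria. The log2 ratio changed sign for Cdkn1b (0.52) and Cdkn2c (-0.16) in the cells numbered 17 to 46, for Rbl2 (-0.29) in those numbered 63 to 92, and for Cdkn2d without the macrophage marker wells (0.08) and without either set of marker wells (0.16). The list median changed sign for the p53 targets under spike-in scaling (-0.19), and for the G2/M genes (0.10) and the regulators of the Ink4-Arf locus (0.07) in the cells numbered 63 to 92. Without the macrophage marker wells, and without the macrophage or erythroid marker wells, 1 member (Cdkn1a) in place of 0 was at least 2-fold higher, and in the cells numbered 63 to 92 there were 2 members (Rbl1 and Cdkn1b) in place of 1 at least 2-fold lower. The pathway lists held 9, 10, 8, 22, 9, 18, 14, 40 and 53 genes at 1 CPM or more. Of these genes, 14 were at least 2-fold higher and 12 at least 2-fold lower, sizes reached by 12.1% and 4.86% of all genes. Without the macrophage marker wells all genes gave 10.4% and 5.71%, and for the other settings these shares were not computed. The count of higher genes became 5 under spike-in scaling and 7 with a pseudocount of 10 CPM. The count of lower genes became 21 with the BASiCS values, 33 under spike-in scaling and 6 without either set of marker wells. It was 66 in the cells numbered 17 to 46 and 7 in those numbered 63 to 92. Beyond what each setting changes by construction, the cause was not tested. Leaving out 1 cell gave 3 to 5 members with a ratio above 0, 0 to 1 (1 without cell 26) at least 2-fold higher and 1 to 1 at least 2-fold lower, and 12 to 16 pathway genes at least 2-fold higher and 10 to 27 at least 2-fold lower, where the count was over 18 without cell 25 (27), 63 (19), 64 (23), 67 (21) or 82 (26). No paired analysis was possible because the labels name no mouse or shared number for the cells. With 1 sample per group no test was run, Cdkn2a and Cdkn2b had no counts to compare, the bound for Cdkn1c rests on 2 cells, and Cdkn1b rests on a few cells.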
